A study of Homo sapiens with 14 samples.

Results

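The downstream part of the CpG-dense start of TEAD4 was described through 42 CpG sites on chromosome 12 (GRCh38), out of 157 sites measured in all. The rule that picks them uses position only and takes every measured site from 2959762 to 2960277, which is 365 to 880 bp after the annotated TEAD4 start at 2959397. The sites form a run of 38 up to 2960007 and a run of 4 from 2960239, with 232 bp between the runs. CpG methylation was measured by sequencing bisulfite-treated amplicons in 14 libraries from the gastric carcinoma line HGC-27, which form 7 groups of 2. Untreated cells received nothing. The gRNA-only group is HGC-27 transfected with 7 guide RNAs against the TEAD4 promoter and nothing else, taken on days 3, 7 and 14. The edited cells, taken on the same days, are Tr.HGC-27-KRAB cells that received the DNMT3AL domain and the same 7 guides. An edited and a gRNA-only library therefore differ in the cell line as well as in the DNMT3AL domain. Whether replicates came from separate cultures is not given in the labels, and p-values then measure only a spread between libraries that may be technical. The labels give no guide positions, and no expression was measured against which the cell line could be checked.

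DNA methylation in mammals sits mostly on cytosines that are followed by guanine. Stretches rich in such CpG sites at gene starts are usually free of methylation, and dense methylation there goes with silencing of the gene. DNMT3A is an enzyme that places new methylation, DNMT3L is its inactive partner that stimulates it, and KRAB is a repressor domain that recruits silencing factors. TEAD4 is a DNA-binding transcription factor of the Hippo pathway that acts together with the coactivators YAP and TAZ.

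All 42 sites lie inside the TEAD4 gene (2959397 to 3040676). The 38-site run also lies inside LOC124902859 (2957598 to 2960048), an uncharacterised long non-coding RNA gene on the reverse strand. The 4-site run lies 191 to 229 bp upstream of the start of that RNA. RefSeq's window around this start (GRCh38.p14, 250 bases before to 50 after it) holds 5 of the 42 sites, namely the last site of the 38-site run and the whole 4-site run. It is shown because it places these sites among the CpGs that were not measured. The forward strand of chr12:2959999-2960298 is printed 5′ to 3′, with the 5 measured CpGs in capitals.
LOC124902859 start window: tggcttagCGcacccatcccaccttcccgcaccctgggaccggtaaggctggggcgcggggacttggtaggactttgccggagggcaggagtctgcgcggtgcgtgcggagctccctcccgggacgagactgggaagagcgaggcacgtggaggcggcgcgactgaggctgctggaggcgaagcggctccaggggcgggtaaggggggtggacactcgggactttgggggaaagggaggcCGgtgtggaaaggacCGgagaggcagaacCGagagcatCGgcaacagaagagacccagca

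The window holds 25 CpGs, counted as the letters CG, which read the same on both strands. At least that many were found in 11246 of the 35116 RefSeq start windows of this length (32.0%), whose median was 14. Its GC content was 68%, against a median of 58.7% over all windows, and its observed over expected CpG ratio was 0.771, against 0.579. The other 20 CpGs of the window, from 2960026 to 2960215, lie between the runs and were not analysed here. The immediate surroundings of the 5 measured sites, 8 bases on each side with the measured CpG in capitals, are given for comparison with their levels below.
CpG 2960007: tggcttagCGcacccatc
CpG 2960239: agggaggcCGgtgtggaa
CpG 2960254: gaaaggacCGgagaggca
CpG 2960268: ggcagaacCGagagcatc
CpG 2960277: gagagcatCGgcaacaga

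In 6 of the 8 control libraries, all but gRNA-only replicate 1 of days 3 and 7, most of these sites were nearly free of methylation. Of the 2 set aside, the day 3 library averaged 14.7% over the 41 sites other than CpG 2960007. The day 7 library averaged 10.2% over the 4-site run. In the 6 libraries, 39 of the 41 sites lay under 2.5%. The median of the 6 library medians was 0.659%. The first exception was CpG 2959762, the first site of the region. It read 8.13 and 5.69% in untreated replicates 1 and 2, and in gRNA-only cells 50.6 and 7.27% on day 3, 2.89 and 8.94% on day 7 and 2.74 and 8.49% on day 14. Its level in gRNA-only replicate 1 of day 3 was the highest of all 14 libraries, edited cells included. The other exception was CpG 2960277, the last site, at 3.99% in untreated replicate 2.

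CpG 2960007 read between 99.97 and 100.0% in every library. It was 1 of 2 sites above 99.9% in every library among the 157 (1.27%), and the other, 2958885, was the first site measured. CpG 2960007 itself is the last measured site before the 232 bp between the runs. Whether its reading stands for methylated molecules was not tested. At that level a rise could not be measured. The site adds the same amount to every mean below that is taken over 42 or 38 sites. Over the 42 sites untreated cells averaged 3.47%, and 1.12% without this site. For gRNA-only cells these means were 5.56 and 3.25%, and for edited cells 32.1 and 30.4%.

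In edited cells the other 41 sites were all higher. Averaged over the 42 sites, edited cells had 32.1% ± 9.32 methylation (SD, n = 6). The gRNA-only cells had 5.56% ± 5.49 (SD, n = 6) and untreated cells 3.47% ± 0.228 (SD, n = 2). The 6 edited libraries, over 3 days, ran from 15.2 to 40.2%. A gRNA-only library, replicate 1 of day 3, reached 16.7% and so overlapped with them, and the remaining 5 of that arm had 3.03 to 3.94%. A level is a share over all molecules of a library, so that more methylated cells and more methylated gene copies per cell cannot be told apart.

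Site by site, 41 of the 42 rose in edited over gRNA-only cells across the 3 days, and 0 fell, by limma with p-values adjusted over all 157 sites and a threshold of 0.05. Among all 157 sites 85.4% rose and 0% fell in the same comparison, so that the share alone does not set the region apart. The median difference was 24.3 percentage points over the 42 sites and 10.4 points over the 157. The 157 include 15 sites beyond the region that averaged 96.6% in edited and 96.98% in gRNA-only cells and had little room to rise. CpG 2960007 was the only site of the 42 not to pass (-0.0068 points, limma adjusted p = 0.798). The same count of 41 was obtained without gRNA-only replicate 1 of day 3. It was also 41 without both gRNA-only libraries that were raised in the region, replicate 1 of days 3 and 7, an alternative chosen after seeing the data. Every edited library lay above every gRNA-only library at 13 of the 42 sites, against 65.6% of the 157. Leaving gRNA-only replicate 1 of day 3 aside, this held at 41 of the 42, against 83.4%. The edited libraries of days 7 and 14 lay above every gRNA-only library at 40 of the 42, against 84.1%.

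The methylation gained was uneven along the region and peaked at CpG 2959921, 524 bp after the start. This site read 0.737 and 1.20% in untreated cells. In gRNA-only cells it read 32.3 and 1.27% on day 3, 0.872 and 0.620% on day 7 and 0.823 and 0.739% on day 14, replicate 1 first. In edited cells it read 38.7 and 62.5% on day 3, 90.2 and 82.9% on day 7 and 79.2 and 75.5% on day 14. Every edited library was thus above every control library. The lowest edited and the highest gRNA-only value, 38.7 and 32.3%, were both from replicate 1 of day 3. The difference over all days was 65.4 points, or 7.29 ± 0.76 (SE) on the log2 odds scale (limma adjusted p = 4.91e-05).

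The next largest rises were at CpG 2959979 (61.7 points), CpG 2959923 (60.7 points), CpG 2959913 (59.8 points) and CpG 2959906 (58.5 points). CpG 2959902, CpG 2959772, CpG 2959893, CpG 2959875 and CpG 2959886 followed with 53.8, 50.7, 48.1, 47.7 and 45.5 points. These 10 sites fall into 3 separate places, 375 bp, 478 to 526 bp and 582 bp after the start. CpG 2959979 shows the last of them. It read 0.811 and 0.916% in untreated cells, then 31.4 and 1.53%, 0.766 and 0.502%, and 0.585 and 0.801% in gRNA-only cells of days 3, 7 and 14. Its edited values were 32.8 and 58.4%, 85.7 and 77.6%, and 77.3 and 73.8% on those days.

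Between the high places lay sites that rose little. CpG 2959959, CpG 2959950, CpG 2959957 and CpG 2959943 had the smallest rises that passed, of 2.60, 3.78, 3.97 and 4.56 points. CpG 2959959, the least methylated of the 42 in edited cells, read 1.63 and 2.98% on day 3, 1.82 and 4.05% on day 7 and 4.27 and 5.08% on day 14 there. In gRNA-only cells it read 1.78 and 0.444%, 0.569 and 0.365%, and 0.503 and 0.583%, and in untreated cells 0.645 and 0.410%. Only gRNA-only replicate 1 of day 3 overlapped with the edited libraries at this site. Its difference of 2.18 ± 0.41 (SE) on the log2 odds scale passed the test (limma adjusted p = 0.000759).

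Edited cells thus carried an alternating outline. Counted by the edited mean over 6 libraries, 16 sites lay under 20%, 16 between 20 and 50%, 9 between 50 and 99.9% and 1 above, limits chosen after the values were seen. Read along the 38-site run, the first 3 sites, 365 to 407 bp after the start, averaged 45.3%. A single low site followed, CpG 2959806 at 11.7%, and then 5 sites from 411 to 433 bp with a mean of 32.1%. The 7 sites from 438 to 472 bp lay between 6.90 and 14.0%, with a mean of 10.3%. The 11 sites from 478 to 532 bp averaged 52.9% and reached 71.5%. Then came 7 sites from 540 to 566 bp with a mean of 6.52%, and 3 sites from 578 to 587 bp with a mean of 51.7%.

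The first low stretch held 7 measured CpGs within 36 bp and the second 7 within 28 bp, and the high stretch between them held 11 within 56 bp. All 14 sites of both low stretches passed in the comparison over all days. The first stretch had 6.38% ± 3.87, 11.9% ± 2.65 and 12.6% ± 1.99 on days 3, 7 and 14 in edited cells, and 0.846% ± 0.251 in untreated cells (SD, n = 2 each). The second had 3.75% ± 1.91, 7.48% ± 0.0558 and 8.34% ± 0.543, against 0.757% ± 0.0190 in untreated cells (SD, n = 2 each). On day 3 the arms overlapped in both, since gRNA-only replicate 1 had 4.86 and 3.17% and edited replicate 1 had 3.64 and 2.40%.

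Some steps between neighbouring sites were steep. CpG 2959923 and CpG 2959929 lie 6 bp apart and averaged 66.4% ± 18.8 and 20.6% ± 8.43 in edited cells (SD, n = 6). The second was lower in 6 of 6 edited libraries, by 26.2 to 55.96 points. CpG 2959929 is the last site of the high stretch described above, so this step lies inside that stretch. The step out of the stretch, from CpG 2959929 to CpG 2959937, was smaller, 10.9 points over 8 bp. CpG 2959869 and CpG 2959875, also 6 bp apart, averaged 12.8% ± 4.66 and 51.8% ± 17.7 (SD, n = 6), and the second was higher in 6 of 6 libraries, by 16.3 to 52.1 points. At the edge of the third high place, CpG 2959963 had 11.1% ± 4.53 and CpG 2959975, 12 bp on, had 42.01% ± 13.5 (SD, n = 6), higher in 6 of 6 libraries. The largest step within a run, 54.5 points over 23 bp, leads from CpG 2959984 to CpG 2960007. That site read 99.97 to 100.0% in every library, and whether this stands for methylated molecules was not tested. CpG 2959804 and CpG 2959806, 2 bp apart and named after their values were seen, differed by 30.9 points, with means of 42.6% ± 16.1 and 11.7% ± 5.72 (SD, n = 6). The first was higher in 6 of 6 edited libraries. All of these pairs were picked by their differences in these same libraries, so the agreement in sign is partly built into the choice.

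Spacing itself told little about the level. In the 38-site run neighbouring sites lay 2 to 32 bp apart, with a median of 5 bp, and in the 4-site run 9 to 15 bp. Over 40 sites, CpG 2960007 and the step between the runs left out, the spacing to the next site and the edited mean had a Pearson r of 0.125 and a Spearman rho of 0.102. These points share their libraries, so no p is given. The median absolute difference between neighbours was 5.46 points over 16 pairs spaced 2 to 4 bp, 6.42 points over 15 pairs spaced 5 to 8 bp and 10.8 points over 8 pairs spaced 9 bp or more. The ranges overlapped, with largest differences of 30.9, 45.8 and 31.0 points.

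Distance beyond the nearest neighbour showed the alternation as a single dip. Over all pairs of the 37 sites, the median absolute difference in edited mean was 6.06 points at 2 to 10 bp (55 pairs), 12.8 at 11 to 20 bp (54 pairs), 28.7 at 21 to 40 bp (109 pairs) and 33.4 at 41 to 80 bp (188 pairs). At 81 to 120 bp it was lower again, 14.6 points (136 pairs). Farther apart it was 25.6 points at 121 to 160 bp (87 pairs) and 29.1 points at 161 to 222 bp (37 pairs). Pairs share sites, so these are descriptions of 1 outline and not independent points.

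The outline was similar in the 6 edited libraries. Of the 40 steps between neighbours within a run, 32 had the same sign in 6 of 6 libraries, and the other 8, with a mean step of at most 6.16 points, did not. Over the 41 sites, Pearson's r between 2 edited libraries ran from 0.958 to 0.994 (15 pairs) and Spearman's rho from 0.966 to 0.995. The sites are the same in each pair, so this is given without a p. Replicates of day 3 differed in height: replicate 1 was lower than replicate 2 at 41 of 41 sites, at a median of 0.488 of its level. Untreated libraries did not follow the outline, with r between 0.0117 and 0.0794.

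The 4-site run, upstream of the start of the non-coding RNA, rose at 4 of 4 sites. Edited cells averaged 21.2% ± 6.65 there (SD, n = 6). The gRNA-only mean was 3.92% ± 4.75 (SD, n = 6) and the untreated mean 1.88% ± 0.758 (SD, n = 2). CpG 2960254 was the highest of the 4. It read 16.4 and 28.5% on day 3, 49.8 and 37.6% on day 7 and 26.5 and 39.3% on day 14 in edited cells, against 15.8 and 1.03%, 15.8 and 0.970%, and 1.02 and 0.797% in gRNA-only cells and 1.67 and 2.33% in untreated cells. Each edited library lay above each control library, but the lowest edited one exceeded gRNA-only replicate 1 of days 3 and 7 by less than 1 point. The same held at the other sites of the run. Over the run, edited replicate 1 of day 3 averaged 10.6%, against 9.94 and 10.2% in those gRNA-only libraries. All 4 sites are among the 13 at which every edited library lay above every gRNA-only library. The rise over all days was 27.1 points (limma adjusted p = 0.00129).

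The rise was 19.97 points at CpG 2960268 (limma adjusted p = 0.0020) and 16.8 points at CpG 2960277 (limma adjusted p = 0.00186). CpG 2960239, only 15 bp before the highest site of the run, rose by 5.38 points (limma adjusted p = 0.0025). Its edited values were 3.91 and 7.01%, 4.49 and 9.32%, and 5.22 and 11.998% on days 3, 7 and 14. The gRNA-only libraries had 3.03 and 0.863%, 3.60 and 0.617%, and 0.906 and 0.684%, and the untreated libraries 1.22 and 1.40%. It was lower than CpG 2960254 in 6 of 6 edited libraries, by 12.5 to 45.3 points, and on day 7 it was 1 of 2 sites of the region that did not pass (limma adjusted p = 0.0794).

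On day 3 none of the 42 sites passed in edited against gRNA-only cells. With limma 0 passed, with 16 at an unadjusted p under 0.05, and quasi-binomial regression also called 0, with 9 unadjusted. Over all 157 sites limma called 29.9% higher on that day, with 54.1% unadjusted, and quasi-binomial regression called 15.9%, with 58.0% unadjusted. The 42 sites averaged 15.2 and 27.6% in the edited and 16.7 and 3.36% in the gRNA-only libraries, replicate 1 first, so that the groups overlapped. Both edited libraries exceeded both gRNA-only libraries at 13 of the 42 sites, against 67.5% of all sites. CpG 2959921, CpG 2959906 and CpG 2959913 had the largest differences, of 33.8, 30.1 and 29.8 points, and did not pass (limma adjusted p = 0.0622, 0.0688 and 0.0714). Without gRNA-only replicate 1 of day 3, 36 of the 42 sites passed, and without that library and replicate 1 of day 7, 37 passed. Without edited replicate 1 of day 3, 1 site passed. In each of these fits a group is left with 1 library, and its spread is taken from the remaining groups.

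The 2 day 3 libraries numbered replicate 1, from different arms, had nearly the same levels. At 29 of the 42 sites the gRNA-only library was the higher one, against 21.0% of all 157 sites, and over the 41 sites the median ratio of gRNA-only to edited was 1.11. It exceeded edited replicate 2 at 2 sites, against 5.10% of all, and each of the other gRNA-only libraries at 38, all in the 38-site run, against 26.1%. The ratio ran from 0.773 at CpG 2960239 to 3.98 at CpG 2959762. Over the 41 sites the levels of that gRNA-only library had a Spearman rho of 0.947 to 0.968 with the 6 edited libraries. Its replicate 2 also ordered the sites in part as the edited cells did, with rho from 0.607 to 0.668, at levels of 0.380 to 7.27%. For untreated replicates 1 and 2 the medians of rho were -0.0200 and 0.233. These correlations are over sites of single libraries and carry no p. In the 4-site run gRNA-only replicate 1 of day 3 and replicate 1 of day 7 had means of 9.94 and 10.2%, while in the 38-site run they had 17.5 and 3.29%. The source of these raised levels was not tested.

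**Figure D1:**
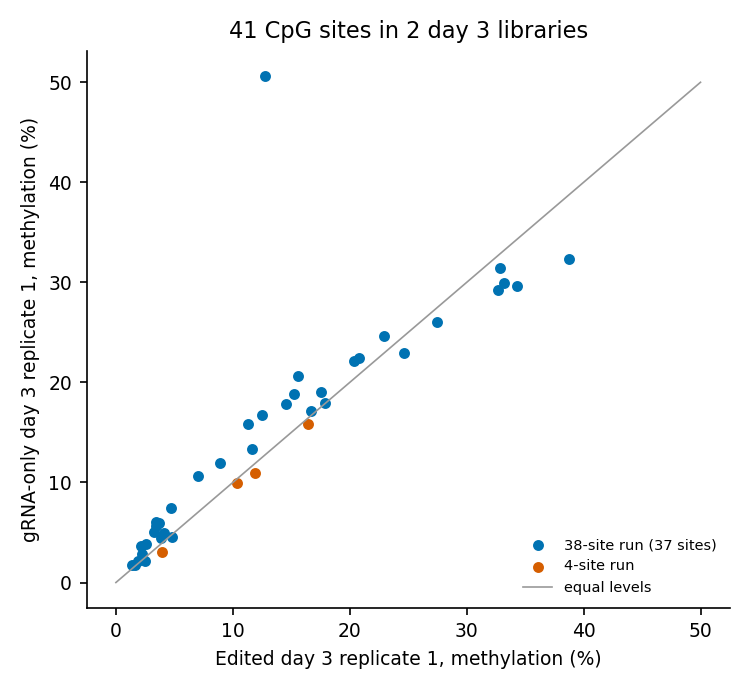
Methylation in percent at 41 CpG sites in gRNA-only replicate 1 of day 3 (vertical axis) against edited replicate 1 of day 3 (horizontal axis), with a line of equal levels. Most points lie close to the line, and CpG 2959762 stands far above it, at 50.6% against 12.7%.

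On day 7, 40 of the 42 sites rose and 0 fell (limma adjusted p from 0.000992 to 0.0461), against 60.5% of all 157 sites. The median difference was 33.5 points over the 42 and 10.0 points over all sites. CpG 2959921, CpG 2959979 and CpG 2959923 had risen by 85.8, 81.0 and 81.0 points. At 41 sites both edited libraries lay above both gRNA-only libraries, against 86.0% of all sites. On day 14, 41 of the 42 rose and 0 fell (limma adjusted p from 0.0016 to 0.0185), against 56.7% of all sites, with a median of 30.8 points over the 42 and 9.39 points over all sites. Both edited libraries of that day exceeded both gRNA-only libraries at 41 sites, against 87.3% of all. The same 3 sites led, with 76.6, 74.9 and 71.4 points.

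Methylation in the edited cells was higher on days 7 and 14 than on day 3, but not past the test. On day 3 the 42 sites averaged 21.4% ± 8.81, by day 7 they stood at 39.2% ± 1.54 and by day 14 at 35.7% ± 0.898 (SD, n = 2 each). Both day 7 libraries exceeded both day 3 libraries at 34 of the 42 sites, against 33.1% of the 157. For day 14 over day 3 this held at 36 sites, all of them in the 38-site run, against 26.1% of the 157. No site passed for day 7 against day 3 (limma 0, with 2 unadjusted; quasi-binomial 0, with 26 unadjusted) or for day 14 against day 3 (limma 0, with 2 unadjusted; quasi-binomial 0, with 10 unadjusted). Unadjusted, the shares of all 157 sites were 1.27% and 17.2% for day 7 and 1.27% and 8.28% for day 14, limma first. Both comparisons use the same day 3 libraries, whose means were 15.2 and 27.6%.

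Between days 3 and 7 CpG 2959772, CpG 2959923 and CpG 2959979 differed most, by 40.5, 36.2 and 36.1 points (limma adjusted p = 0.899 for each). CpG 2959772 read 22.9 and 44.0% on day 3, 78.9 and 69.03% on day 7 and 61.4 and 56.01% on day 14. Its 6 edited values thus formed 3 pairs that did not overlap. In gRNA-only cells it read 24.7 and 1.15%, 0.594 and 0.504%, and 0.568 and 0.566%, and in untreated cells 0.975 and 0.760%. Between days 3 and 14 those that differed most were CpG 2959979, CpG 2959875 and CpG 2959984, by 29.96, 29.1 and 29.0 points (limma adjusted p = 0.894 for each). Relative to their own day 7 level, the 41 sites had reached a median of 0.513 on day 3, from 0.330 at CpG 2959950 to 0.791 at CpG 2960239.

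Whether the change over time differed between the arms was tested directly. For the change from day 3 to 7, limma called 0 of the 42 sites (28 unadjusted) and quasi-binomial regression 0 (30 unadjusted). For day 3 to 14 the counts were 0 (31 unadjusted) and 0 (30 unadjusted). Of all 157 sites, the unadjusted shares were 17.8% and 19.1% up to day 7 and 19.7% and 20.4% up to day 14. Up to day 7 the arms differed most in their change at CpG 2959772, CpG 2959921 and CpG 2959979, by 52.8, 51.97 and 51.9 points (limma adjusted p = 0.195 for each). Up to day 14 it was CpG 2959979, CpG 2959762 and CpG 2959921, with 45.7, 43.5 and 42.8 points (limma adjusted p = 0.236, 0.240 and 0.236). These values include falls in the gRNA-only means. At CpG 2959762 that mean went from 28.9% on day 3, with replicate 1 at 50.6%, to 5.61% on day 14. The edited mean there went from 22.8 to 43.0%. Without gRNA-only replicate 2 of day 3, which leaves only the raised library as the day 3 control, 32 and 35 sites passed, again with the spread of that lone library taken from the remaining groups.

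The change from day 7 to day 14 was described separately for sites of high and low level. The 41 sites were split at the median of their edited day 3 level, 18.6%, a split chosen after the values were seen that uses neither of the compared days. All 20 sites above it were lower on day 14, with a median difference of -7.08 points, and at 14 of them both day 14 libraries lay below both day 7 libraries. Their mean was 64.0 and 59.4% in the day 7 libraries and 56.5 and 53.5% in those of day 14. Of the 21 other sites 10 were higher and 11 lower on day 14, with a median difference of -0.0884 points, and at 5 both day 14 libraries lay above both of day 7. The sites of a class share the same libraries, so these counts are not independent observations. The difference between these classes was not tested. Over all 42 sites both day 7 libraries exceeded both of day 14 at 17, against 26.8% of the 157. The reverse held at 5, against 19.1%.

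No site passed for day 14 against day 7 (limma 0, with 0 unadjusted; quasi-binomial 0, with 0 unadjusted). Of all 157 sites 2.55% and 7.01% had an unadjusted p under 0.05 by these tests. CpG 2959772, CpG 2960254 and CpG 2959893 differed most, by -15.2, -10.8 and -10.5 points (limma adjusted p = 0.994 for each). Relative to day 7, the day 14 level ran from 0.699 at CpG 2960268 to 1.67 at CpG 2959943, with a median of 0.939 over the 41 sites. CpG 2959943, in the second low stretch, read 2.25 and 5.17% on day 3, 2.84 and 6.65% on day 7 and 7.84 and 8.04% on day 14 in edited cells.

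Against untreated cells, 41 of the 42 sites rose in edited cells and 0 fell (limma adjusted p from 0.000522 to 0.0358), with 58.0% of all 157 sites rising in that comparison. The median difference was 26.7 points over the 42 and 9.54 over all sites. Each edited library exceeded both untreated libraries at 41 sites, against 66.2% of all. CpG 2959921, CpG 2959979 and CpG 2959923 led with 70.5, 66.8 and 65.3 points. Between gRNA-only and untreated cells no site passed, although 40 of the 42 were higher in gRNA-only cells, by a median of 1.98 points over the 42. Over all 157 sites the median was -0.380 points. Without CpG 2960007, gRNA-only replicate 1 of day 3 averaged 14.7%. The other libraries of that arm had 0.663 to 1.60%, against 0.952 and 1.28% in untreated cells. In the test of the gRNA-only against the untreated cells, limma called 0 (0 unadjusted) and quasi-binomial regression 0 (0 unadjusted), against unadjusted shares of 1.91% and 0.637% of all sites. CpG 2959762, CpG 2959921 and CpG 2959979 differed most, by 6.58, 5.14 and 5.07 points (limma adjusted p = 0.994 for each). This comparison shares the untreated libraries with the one before and the raised gRNA-only libraries with those above.

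Side by side with the sites before the region, the edited group means followed other courses over the days, in part through single libraries. The 64 sites before the TEAD4 start had 22.04% ± 7.03, 25.7% ± 1.29 and 19.4% ± 8.29 on days 3, 7 and 14, and the 36 sites from the start up to the region 26.9% ± 19.7, 14.4% ± 0.000568 and 16.8% ± 0.0942 (SD, n = 2 each). The region itself had 21.4, 39.2 and 35.7%, as above. The 15 sites beyond it had 96.99% ± 0.295, 96.6% ± 0.534 and 96.3% ± 0.450 in edited cells on those days (SD, n = 2 each). In untreated cells those 15 sites averaged 97.04%. In gRNA-only replicate 1 of day 3 the sites before the start averaged 7.78%, below both untreated libraries (7.88 and 10.2%), while the region averaged 16.7%, above both (3.31 and 3.63%). In the 36 sites between them it had 9.16%, against 4.88% in its replicate 2. There gRNA-only replicate 1 of days 7 and 14 also exceeded replicate 2, with 8.93 against 4.92% and 9.84 against 4.88%, and the untreated libraries had 4.41 and 12.9%. These differences between regions were not tested.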

How the data were processed

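Percent methylation per CpG was deposited by the authors as 1 table per library, with decimal commas and without read counts or coverage, which leaves the sequencing depth of every value unknown and allows no counting interval. Per the labels' protocols, amplicons of bisulfite-treated DNA were sequenced, with at least 100000 reads per amplicon aimed at. The submitters' processing notes name Trim Galore 0.6.7, Bismark 0.23.1 and the builds hg38 and GRCh38.p13. Incomplete bisulfite conversion and uneven amplification of methylated and unmethylated copies could shift these percentages, and neither could be checked here.

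Percentages were converted to log2((percent + 0.1) / (100 - percent + 0.1)) and fitted with limma 3.58.1 in R 4.3.3, with 1 mean per group over all 14 libraries and all 157 sites. Benjamini-Hochberg adjusted p-values are two-sided and cover the 157 sites. Since no counts were used here, a test on read counts could not be run. Quasi-binomial regression on the percentages, an exact permutation test within days, other offsets, a minimum difference of 5 points, a replicate block and leaving out each library were alternatives. The limma fit was tested on simulated data with independent noise at each site and a common spread. Shifts that the sites of a library share were not simulated. Tables were made with pandas 2.3.3, scipy 1.17.1 and numpy 2.4.6.

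The region and the lists were chosen with earlier results of these data known. Sites were named by rule: in the comparison over all days, the 10 largest rises past the threshold with the same sign on the 3 days, the 5 smallest differences and each site that did not pass. In the other comparisons the 3 largest differences were named, and in addition the 4-site run, the 3 neighbouring pairs that differed most, sites above 10% in untreated cells and the ends of each run. Sequences and gene positions are RefSeq's (GRCh38.p14), and exon and intron annotation was not used here. No sequence is given for the other 37 sites.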

Additional observations from a re-analysis of the deposited data

Results flagged for a closer look

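Averaged over the 42 sites, gRNA-only replicate 1 of day 3 had 16.7% methylation, far from the other 5 gRNA-only libraries at 3.03 to 3.94%. Over the 38-site run the same library had 17.5%, against 3.25 to 3.62% in the other 5. The gap to its nearest neighbour was 0.933 and 0.974 of the range of the 6 libraries, above Dixon's 95% critical value of 0.625. The 6 libraries cover 3 days, so they are not 6 replicates of 1 condition. Of 6 sets of libraries examined, these 2 share nearly all of their sites, and chance flags about 1 set in 20.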

How the results depend on the processing

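Over all days the count of sites higher in edited cells was 41 in every run that left out 1 library. On day 3 it was 0 with all libraries, ranged from 0 to 36 with 1 library left out (36 without gRNA-only replicate 1 of day 3), and was 37 without both raised gRNA-only libraries, a setting chosen after seeing the data. The arms' difference in change was called at 0 to 32 sites up to day 7 and 0 to 35 up to day 14 when 1 library was left out, the highest counts coming without gRNA-only replicate 2 of day 3. Such fits assume that the lone library left in a group varies like the other groups. Taking the median over the 42 sites in place of the mean gave 0.816% in untreated cells, 0.564% and 0.590% in gRNA-only cells of days 7 and 14, and 37.6% and 32.3% in edited cells of those days. On day 3 it gave 7.70% in gRNA-only and 18.9% in edited cells. CpG 2960007 passed in the exact within-day permutation test (adjusted p = 0.014) with a difference of -0.0068 points. Replicate numbers did not pair the samples consistently. Over 21 pairs of groups and all 157 sites, the deviations of same-numbered libraries correlated between -0.727 and 0.751, and above 0.1 in 7. Among the gRNA-only groups all pairs were positive there, at 0.246, 0.272 and 0.751, while untreated against gRNA-only of day 14 had the lowest value. Over the 42 sites alone the same gRNA-only pairs had -0.00547, 0.00875 and 0.299. The lowest value over these sites was -0.662, for gRNA-only against edited cells of day 3. With the replicate number as a block, the counts were 41 over all days, 0 on day 3, 39 on day 7 and 41 on day 14. Unknown coverage and 2 libraries per group limit the precision, and an exact test of 2 against 2 cannot go below p = 0.333.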
